A study of Mus musculus with 4 samples.

Results

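The Sox, Pax and T-box genes are 3 families of developmental transcription factors. The 43 members described here are 19 Sox, 9 Pax and 15 T-box genes, taken by name from the 21900 protein-coding genes of the RefSeq annotation of GRCm38.p6, the assembly behind mm10. The measurement was ATAC-seq, in which a transposase cuts and tags accessible chromatin, in nuclei of bone marrow-derived macrophages of the mouse. Marrow from Ezh2 fl/fl;LysM-Cre+/- mice (knockout, KO) and from littermate controls (wild type, WT) was grown for 7 to 10 days with L929 cell conditioned medium. All 4 libraries, 2 of each genotype, came from cells kept for 24 hours in Hepa1-6 conditioned medium, which a liver cancer line of the mouse supplied. Unexposed cells were not analysed here. LysM-Cre acts in myeloid cells, so the deletion concerns that lineage. Whether the replicates of a genotype are separate mice or cultures is not in the labels. The SDs and p-values then measure only the spread between these libraries, which may be technical.

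Sox proteins bind DNA through an HMG box, Pax proteins through a paired domain and T-box proteins through the T domain. Most of them set cell fates in the embryo: Sox2 in pluripotent and neural cells, Sox9 in cartilage, Pax6 in the eye, Tbx5 in the heart. A few act in blood cells, among them Pax5 in B cells and Tbx21 (T-bet) and Eomes in T and NK cells. Ezh2 is the catalytic subunit of Polycomb repressive complex 2 (PRC2), which methylates histone H3 at lysine 27, and developmental regulators of these families are well-known Polycomb targets. The comparison asks which of them carried accessible chromatin in these macrophages and whether the calls differed between genotypes.

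The deposited data are 1 broad peak list per library, holding 69210 (WT replicate 1), 72887 (WT replicate 2), 67055 (KO replicate 1) and 71111 peaks (KO replicate 2). No read counts are given, so the depth of each library is unknown, and a missing peak is a missing call rather than a measured absence of signal. Peaks of the 4 lists that overlapped by at least 1 bp were merged into 91858 regions, and every library called 57.8% of them. A gene was called open at an end in a library when that library had a peak in a region within 1 kb of either end of the gene, and its window was the gene plus 10 kb on each side. Ezh2 had 8 regions in its window, 3 of them called in every library, and such lists do not check the deletion of an exon. The fixed macrophage marker list was open in all 4 libraries for 8 of 8 genes (Spi1 and Csf1r among them). Of 7 T and NK cell markers, 3 were open at an end in all 4 libraries, and Cd3e, Cd8a and Ncr1 had no region in their windows. Of 6 B cell markers 1 was open in all 4 libraries and 2 in some. Markers open at an end in all 4 libraries were 1 of 5 for endothelial cells, 1 of 6 for fibroblasts and cartilage, 4 of 6 for neural and glial cells and 1 of 5 for hepatocytes. Over all protein-coding genes 54.7% were open at an end in all 4 libraries and 6.41% in some. Counts of genes and regions carry exact Clopper-Pearson 95% intervals, which cover counting error only, and genes that are neighbours are not independent.

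Most of the 43 genes had no peak called at an end in these macrophages. A gene end was open in all 4 libraries for 9 genes (20.9%, 95% interval 10.0 to 36.0), against 54.7% of all protein-coding genes. In 8 genes (18.6%, 8.39 to 33.4) an end was open in some libraries only, against 6.41% of all genes, and in 26 genes (60.5%, 44.4 to 75.0) in none, against 38.9%. The 9 genes open in every library were Sox4, Sox5, Sox6, Sox12 and Sox13, and Tbx1, Tbx3, Tbx10 and Tbr1, each through 1 region that all 4 libraries shared (9 of 43, against 54.6% of all genes). The 19 Sox genes divided into 5 open in all libraries, 2 in some and 12 in none, and the 15 T-box genes into 4, 6 and 5. No Pax gene had a region within 1 kb of an end in any library (0 of 9).

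**Figure D1:**
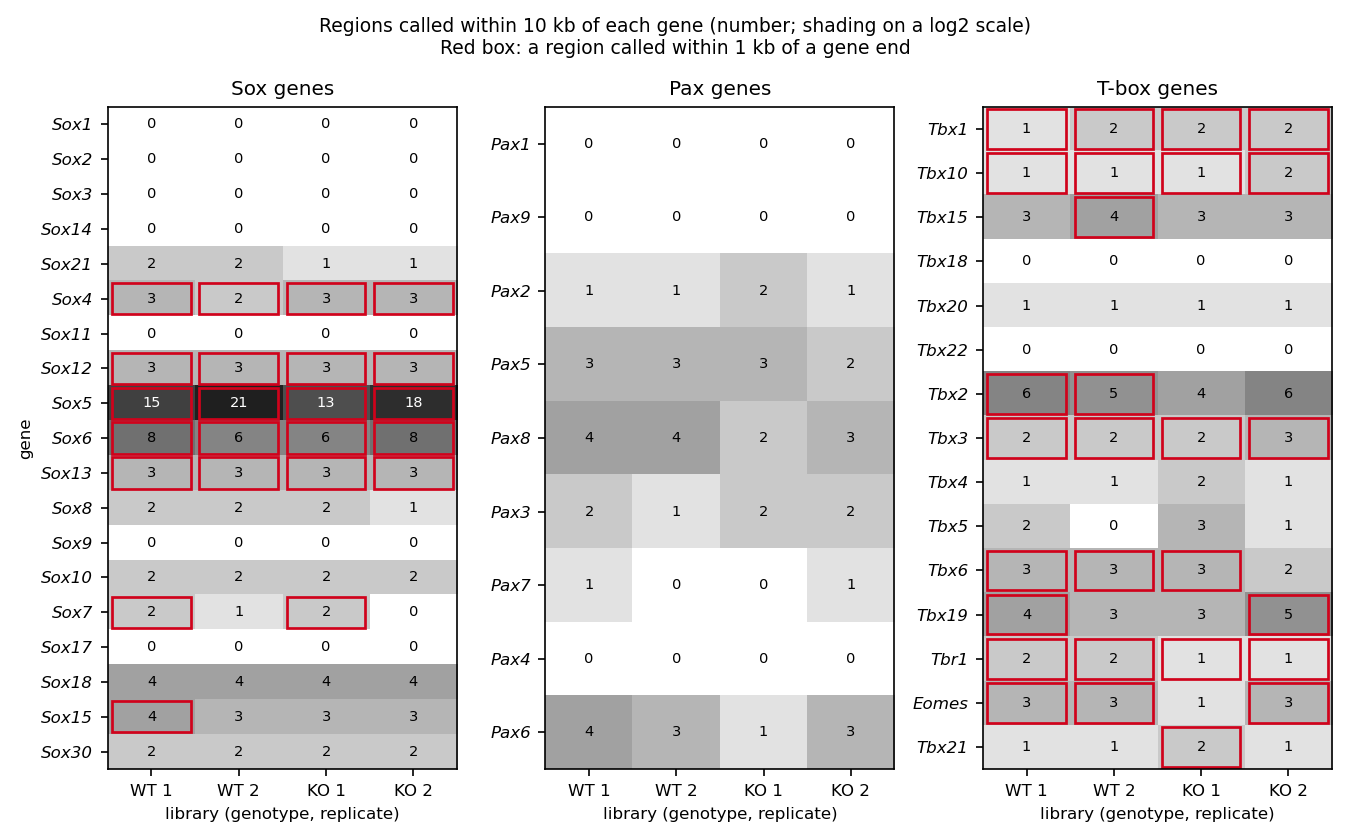
Number of regions that each library called within 10 kb of each gene, shaded on a log2 scale, with the 3 families side by side, and red boxes where a region lay within 1 kb of a gene end. The 12 rows of zeros are the genes with no region in any library, and no box stands in the Pax panel.

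The start sites of 7 members are given here because they span the range of calls over the bases before the start. Sox12 and Sox4 had a peak over these bases in all 4 libraries and Sox30 in 2. Sox13, Sox2, Pax5 and Tbx21 had none there. Each run is the 250 bases before the annotated start from the RefSeq promoter table of GRCm38.p6, read 5′ to 3′ on the gene's strand. Capitals mark CG pairs. Sox12 lies at chr2:152398047-152398296 (minus strand), Sox4 at chr13:28953700-28953949 (minus), Sox30 at chr11:45980060-45980309 (plus), Sox13 at chr1:133424213-133424462 (minus), Sox2 at chr3:34649745-34649994 (plus), Pax5 at chr4:44710695-44710944 (minus) and Tbx21 at chr11:97115332-97115581 (minus).
Sox12: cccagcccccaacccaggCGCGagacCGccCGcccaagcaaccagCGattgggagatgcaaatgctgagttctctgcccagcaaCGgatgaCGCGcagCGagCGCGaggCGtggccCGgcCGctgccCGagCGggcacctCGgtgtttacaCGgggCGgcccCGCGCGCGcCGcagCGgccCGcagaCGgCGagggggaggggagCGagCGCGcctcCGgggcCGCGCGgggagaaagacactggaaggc
Sox4: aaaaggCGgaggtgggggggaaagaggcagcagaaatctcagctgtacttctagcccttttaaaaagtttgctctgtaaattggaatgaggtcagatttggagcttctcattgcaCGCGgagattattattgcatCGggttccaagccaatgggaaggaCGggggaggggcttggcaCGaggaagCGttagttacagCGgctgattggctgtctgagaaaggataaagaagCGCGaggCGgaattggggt
Sox30: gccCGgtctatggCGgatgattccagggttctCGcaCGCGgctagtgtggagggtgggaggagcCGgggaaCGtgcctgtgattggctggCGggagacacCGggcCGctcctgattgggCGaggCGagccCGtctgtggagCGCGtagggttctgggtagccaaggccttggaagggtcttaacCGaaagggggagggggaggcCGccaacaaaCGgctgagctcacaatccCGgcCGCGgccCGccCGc
Sox13: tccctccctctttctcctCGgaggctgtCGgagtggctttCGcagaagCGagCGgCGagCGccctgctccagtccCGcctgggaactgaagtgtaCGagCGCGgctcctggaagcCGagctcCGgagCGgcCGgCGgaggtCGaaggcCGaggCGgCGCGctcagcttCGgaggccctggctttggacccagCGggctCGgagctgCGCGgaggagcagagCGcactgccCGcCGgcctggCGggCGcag
Sox2: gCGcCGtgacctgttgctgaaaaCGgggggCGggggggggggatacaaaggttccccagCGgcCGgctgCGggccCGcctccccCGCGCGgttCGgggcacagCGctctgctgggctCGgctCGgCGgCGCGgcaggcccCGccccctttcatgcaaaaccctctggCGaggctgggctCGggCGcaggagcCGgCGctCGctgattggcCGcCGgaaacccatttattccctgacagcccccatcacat
Pax5: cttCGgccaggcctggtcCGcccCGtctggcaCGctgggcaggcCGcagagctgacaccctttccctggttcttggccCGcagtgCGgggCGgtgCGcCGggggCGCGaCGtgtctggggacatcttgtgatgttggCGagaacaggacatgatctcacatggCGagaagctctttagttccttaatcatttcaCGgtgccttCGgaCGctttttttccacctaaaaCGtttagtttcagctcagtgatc
Tbx21: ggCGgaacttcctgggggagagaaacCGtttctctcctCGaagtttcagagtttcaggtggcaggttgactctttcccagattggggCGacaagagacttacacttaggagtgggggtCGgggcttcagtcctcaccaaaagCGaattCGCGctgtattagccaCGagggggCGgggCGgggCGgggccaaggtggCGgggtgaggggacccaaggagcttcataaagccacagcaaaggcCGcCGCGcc

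Of the 250 bases of Sox12, which hold 35 CG pairs, peaks covered 122 and 239 in WT replicates 1 and 2 and 210 and 127 in KO replicates 1 and 2. Sox4 has 11 CG pairs, and peaks covered all 250 bases in 3 libraries and 97 in WT replicate 2. The Sox30 stretch has 23 CG pairs and was touched over 22 bases in WT replicate 2 and 144 in KO replicate 2, the same replicate number of each genotype. The merged region that spans this Sox30 start, chr11:45980166-45980964 (799 bp), was nevertheless called in all 4 libraries. Its folds were 4.39 and 4.48 in WT replicates 1 and 2 and 4.28 and 3.96 in KO replicates 1 and 2. In WT replicate 1 and KO replicate 1 the peak lay just downstream of the start. The 31 CG pairs of Sox13, 27 of Sox2, 19 of Pax5 and 16 of Tbx21 lay under no peak. Covered and uncovered sequences overlapped in CpG observed over expected, the number of CG pairs divided by that predicted from the C and G content, which was 1.01 for Sox12 and 0.801 for Sox4 and 0.951 for Sox13 and 0.721 for Tbx21.

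The promoter table gives 42 windows of 300 bases (250 before and 50 after a start) for 31 of the 43 genes. Only Sox12 and Sox4 had a window touched by a peak in all 4 libraries (2 of 42, 4.76%, interval 0.582 to 16.2), against 48.8% of 21263 windows of all genes. No library touched 37 windows (88.1%, 74.4 to 96.0), against 46.0%. The remaining 3 were those of Sox30, a gene of male germ cells (WT replicate 2 and KO replicate 2), Sox15 (WT replicate 1) and Tbx1 (WT replicate 2). Some genes have more than 1 window, and some windows lie far inside the gene. Those of Sox5 and Sox6 were all untouched, although both genes had a region near the 5′ end in all 4 libraries. The counts are therefore of table windows and not of genes. The median number of CG pairs was 13.0 in the members' windows and 13.0 in all windows, and the median CpG observed over expected was 0.643 and 0.567. Among windows above 0.6, 20 of 24 of the members were untouched (83.3%, 62.6 to 95.3), against 14.5% of all such windows, and 2 of 24 were touched in all 4 libraries (8.33%, 1.03 to 27.0), against 80.3%. The median of the members' untouched windows was 0.639. Over all genes it was 0.237 for untouched windows and 0.797 for those touched in all 4 libraries.

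**Figure D2:**
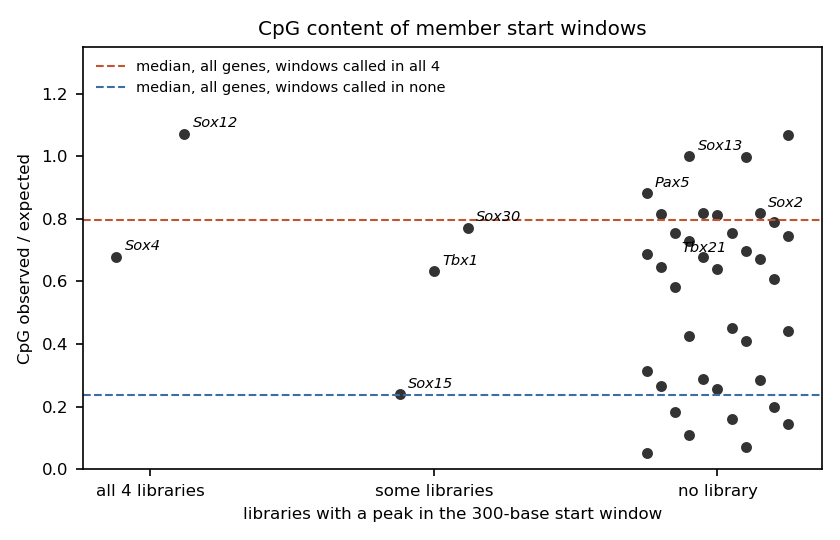
CpG observed over expected (no unit) of the 42 start windows of members, 1 point per window, by the number of libraries with a peak there; dashed lines are medians over all genes. The points of the untouched windows run from 0.0520 to 1.07, and many lie near the line at 0.797 of windows touched in all 4 libraries.

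Short motifs, searched on both strands of these windows, were found as follows. GGGCGG, the GC box, was in 21 of 42 windows (50%; 46.2% of all windows). ACAAAG, the core that Sox proteins bind, was in 13 (31.0%; 16.8%), and TCACACC, the T-box core, in 1 (2.38%; 3.68%). CCGGAAG, an ETS site, was in 1 (2.38%; 11.6%), and the shorter GGAA, which it contains, in 39 (92.9%; 95.7%). TGANTCA, the AP-1 site, and CACGTG, the E-box, were in 1 window each (2.38%), against 6.99% and 7.84% of all windows. Windows of the same gene are not independent. Several of the windows with ACAAAG, and the only one with TCACACC, are starts of Sox6, and others are starts of Pax2 and Tbx22. The shares therefore count windows and not genes. A match is a string of letters and not a bound site.

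Among the Sox genes with an accessible end, the SoxC genes Sox4 and Sox12 act in progenitor cells and developing neurons and, for Sox4, in lymphocyte development. The peak caller's fold, enrichment over local background, is given with its percentile among the peaks of the same list and is the authors' own value. It describes peaks within a list and is not compared between lists. Where a library had 2 peaks in a region, as at the starts of Sox12 and Sox4, the larger fold is given first. Sox12 had a merged region of 1385 bp that spans its start, chr2:152397779-152399163, with folds of 6.01 and 6.83 in WT replicates 1 and 2 and 7.65 and 6.21 in KO replicates 1 and 2. These stood at percentiles 79.4, 90.7, 92.7 and 82.0, in the upper part of every list, and belong to peaks upstream of the start. The peaks over the start base itself were separate and weaker, and were called in WT replicate 2 (fold 3.41, percentile 24.5) and KO replicate 1 (fold 2.74, percentile 2.09). A region of 176 bp lay 520 bp from its 3′ end (6.38, 4.76, 4.22 and 5.94). The Sox4 start lay in a region of 974 bp, chr13:28953012-28953985, with folds of 2.77, 3.04, 3.11 and 2.84 at percentiles 2.26, 13.1, 9.27 and 4.62. In KO replicate 1 the peak over the Sox4 start was the weaker of 2 (fold 2.80, percentile 2.63). The Sox4 region was thus among the weakest peaks of each list, although it was found 4 times. A region of 1337 bp, 4067 bp from the 5′ end of Sox4 (chr13:28957766-28959102), stood at percentiles 29.2, 33.5, 29.6 and 47.4. Sox11, the remaining SoxC gene, had no region in its window.

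The SoxD genes Sox5, Sox6 and Sox13, which lack a transactivation domain and act beside other Sox proteins, all had an end open in all 4 libraries. Sox6, with roles in cartilage and red cell development, had a region of 742 bp 166 bp from its 5′ end, chr7:116039869-116040610. Its folds were 6.23, 5.94, 6.01 and 5.89 (percentiles 82.3, 80.8, 77.1 and 77.9). Sox5 spans 953863 bp and had the most regions, 31, called 15, 21, 13 and 18 times in WT replicates 1 and 2 and KO replicates 1 and 2. Every library called 9 of these, and that at the 5′ end, chr6:144781298-144781969, had folds of 2.89, 4.27, 3.14 and 3.56 (percentiles 3.64, 47.8, 10.3 and 27.4). A region in the body, chr6:144570845-144571228, had folds of 7.86, 4.86, 5.91 and 6.61. At Sox13 the open end was the 3′ end (chr1:133382117-133382307, 191 bp; 5.14, 4.70, 5.40 and 5.38), while the start printed above was without a peak. SoxD genes therefore hold 16 of the 34 Sox regions called in all 4 libraries, and 48 of the 74 Sox regions in all.

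The remaining Sox groups mostly had no region called at an end. SoxB1 (Sox1, Sox2 and Sox3), which maintain pluripotent and neural progenitor cells, had no region in any window. Of SoxB2, Sox14 had none, and Sox21 had 2 regions in the flank, of which chr14:118228761-118229187 was called in all libraries (3.05, 2.76, 3.25 and 3.35). Of SoxE, Sox9 had none. Sox8 and Sox10, which act in glia and the neural crest, had no region at an end. Sox10 had a region of 280 bp inside the gene in all 4 libraries (3.41, 4.62, 3.55 and 3.62) and a stronger one in the flank nearest to Polr2f. Of the endothelial SoxF genes, Sox17 had no region. Sox18 had 4 regions, all in the flank and in every library, of which 3 lay nearer to Gm29797 or Tcea2 than to Sox18. Sox7 was open at an end through separate regions in WT replicate 1 (fold 2.96) and KO replicate 1 (2.91), with no region in KO replicate 2. Sox15 was open at an end in WT replicate 1 alone (chr11:69654592-69654829, fold 3.06). Its 3 regions called in every library were nearest to Mpdu1 and Cd68, the latter a macrophage lysosomal membrane protein.

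Pax genes had regions inside the gene or in the flank, but none at an end. Pax1 and Pax9 (vertebral column, teeth) and Pax4 (islet beta cells) had no region in their windows. The gap from Pax4 to the nearest region called in all 4 libraries, 10811 bp, was the shortest among the 12 genes without a region. Pax5, the factor that keeps B cells committed, had 7 regions, of which 1 was called in all libraries, 39928 bp inside from the 3′ end (chr4:44564676-44564999; 3.49, 4.29, 3.37 and 3.64). Pax8, a thyroid and kidney factor, had 2 such regions. That at chr2:24456790-24457274 had folds of 5.24, 5.56, 4.76 and 7.15, and the other lay at the weaker end of each list (3.77, 3.26, 3.34 and 2.96). Pax2, Pax3 and Pax6 each had 1 region called in all libraries. The Pax2 region lay 3884 bp inside from the 5′ end and had folds of 4.66, 5.12, 4.86 and 4.75, at percentiles 53.4, 67.3, 57.2 and 57.6, in the upper part of each list. The 2 regions of Pax7, a muscle stem cell factor, were each called in a single library, WT replicate 1 and KO replicate 2. Across the family 6 of 23 regions were called in every library, against 34 of 74 for Sox and 20 of 45 for T-box genes. Each family lay below the 60.5% of regions near any protein-coding gene, and 48 of the 74 Sox regions were those of SoxD genes.

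Among T-box genes, Tbx1, which patterns the pharyngeal arches, had its start in a weak merged region of 882 bp, chr16:18589858-18590739 (3.16, 2.86, 3.17 and 2.85; percentiles 11.6, 7.01, 11 and 4.77). Only the WT replicate 2 peak reached the start base, and the peaks of the other libraries lay inside the gene. The region of Tbx10 was strong in every list (chr19:3999976-4000837; 6.47, 7.59, 8.13 and 7.42) but overlapped the neighbouring gene Nudt8, to whose end it was nearer. Tbx3, of limb and heart conduction tissue, had a region of 436 bp over its lower-coordinate end that also overlapped the antisense gene Tbx3os1 (chr5:119670373-119670808; 4.87, 4.27, 4.22 and 3.48). Tbr1, a factor of cortical neurons, was open 970 bp past its 3′ end (chr2:61815084-61815620; 3.50, 3.43, 3.06 and 3.02), just within the 1 kb limit. Tbx6, a factor of paraxial mesoderm, had a merged region within 1 kb that 3 libraries called (3.33, 3.61 and 5.00, none in KO replicate 2), and it overlapped Ypel3. The KO replicate 1 peak itself lay beyond 1 kb and was counted through the merged region. Of the 9 genes open in every library, Sox4, Sox12 and Tbx1 had the merged region over the 5′ end, and Sox5 and Sox6 within 1 kb of it. Sox13, Tbx10 and Tbr1 had it at or past the 3′ end, and for Tbx3 the strand was not used here.

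The lymphocyte T-box genes had weak, irregular calls at their ends. Tbx21 had a region at an end only in KO replicate 1 (chr11:97115967-97116127, fold 3.58). Inside the gene, 3827 bp from its 3′ end, a region of 286 bp was called in every library (chr11:97101834-97102119; 5.62, 4.57, 4.24 and 4.15; percentiles 73.2, 55.4, 42.6 and 43.7). Eomes had 3 regions within 1 kb of an end, each in a different library: WT replicate 1 (2.95), WT replicate 2 (3.03) and KO replicate 2 (3.00). Its region in all libraries lay 3323 bp past the 3′ end (chr9:118489455-118490078; 5.39, 4.98, 4.67 and 5.25). The remaining T-box genes open in some libraries were Tbx15 (WT replicate 2, fold 3.39), Tbx19, which drives Pomc in pituitary cells (WT replicate 1, 3.49, and KO replicate 2, 3.93), and Tbx2 (both WT libraries). Tbx2 and Tbx19 had 4 of 7 and 3 of 5 regions called in every library. Tbx18 and Tbx22 had no region. Tbx4 and Tbx20 had 1 region each in all libraries, and Tbx5, which builds heart and forelimb, had 4 regions with none in all libraries and no call in WT replicate 2.

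The count of 9 genes changed with the strength asked of a peak. With the weakest 25% of each list by fold removed, 5 genes were open at an end in all 4 libraries (11.6%, interval 3.89 to 25.1, against 49.5% of all genes): Sox6, Sox12, Sox13, Tbx3 and Tbx10. With the weakest 50% removed they were 4 (9.30%, 2.59 to 22.1, against 40.2%), Tbx3 having dropped out. At Sox4, Sox5, Tbx1 and Tbr1 the peak was among the weakest 25% of at least 1 list. Where only the gene's 5′ end counted, in the 31 genes of known strand, 5 were open in every library: Sox4, Sox5, Sox6, Sox12 and Tbx1. With the starts of the promoter table in place of the gene's 5′ end they were also 5, with Sox30 in place of Sox5, since some of those starts lie inside the gene. Shares over all genes were not computed for either start rule, so these counts have no background beside them.

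The windows held 142 regions, none in the windows of 2 members. Fewer of them were called in all 4 libraries than near protein-coding genes in general: 60 (42.3%, interval 34.0 to 50.8), against 60.5% of 66584 regions near any protein-coding gene. By contrast 58 (40.8%, 32.7 to 49.4) were called in 1 library, against 21.2%. Regions in 2 libraries numbered 11 (7.75%, 3.93 to 13.4, against 9.16%) and in 3 libraries 13 (9.15%, 4.97 to 15.1, against 9.15%). Regions of the same gene are not independent, although the intervals treat them so. The long genes Sox5 and Sox6 held 31 and 14 of the 142 regions, of which 9 and 4 were called in all 4 libraries. The shares therefore weigh such genes heavily, and shares without them were not computed. The calls of 1 library were spread over all 4: 16 in WT replicate 1, 14 in WT replicate 2, 13 in KO replicate 1 and 15 in KO replicate 2. These regions were short and weak, with a median width of 156.5 bp and a median percentile of 8.17, the values near any gene being 156.0 bp and 10.1. Regions called in all 4 libraries had a median width of 468.5 bp (534.0 near any gene) and a median for the lowest percentile of the 4 libraries of 40.3 (49.9).

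**Figure D3:**
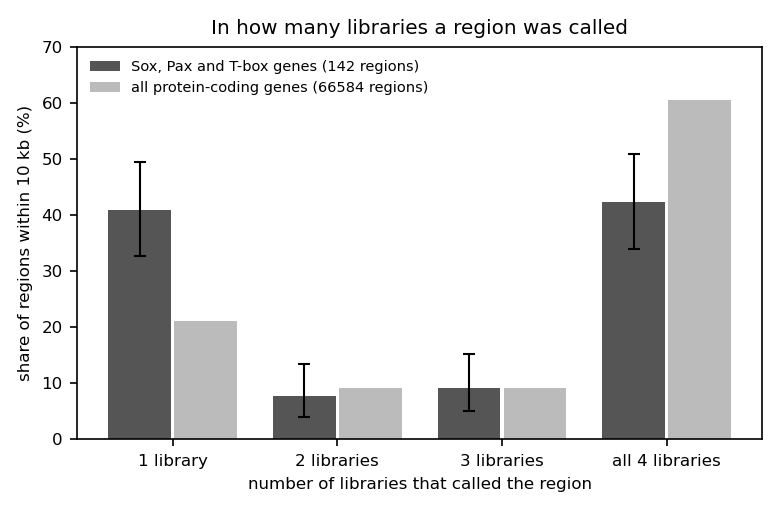
Share of regions within 10 kb (%) by how many libraries called them, for the 142 regions of the members (dark bars, with exact 95% intervals) and the 66584 regions of all protein-coding genes (light bars). The dark bar at 1 library stands at 40.8% beside 21.2%, and at all 4 libraries at 42.3% beside 60.5%. The intervals treat regions of the same gene as independent.

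Shares called in all libraries are given by position, without a test. Of 79 regions inside a gene and beyond 1 kb of its ends, 26 were called in all libraries (32.9%). The long genes Sox5 and Sox6, with 31 and 14 regions that lay mostly inside the gene, weigh heavily on this share. In the flanks it was 24 of 39 (61.5%), and at the ends 10 of 24 (41.7%). Shares by position were not counted for other genes, so the pattern cannot be called particular to these families. Over all positions the share near any protein-coding gene was 60.5%. In the flank 25 of 39 regions lay nearest to a member's own end, and the rest nearest to another gene, as at Sox18 and Sox15. At least 1 region called in all libraries lay in the window of 28 genes (65.1%, 49.1 to 79.0), against 74.1% of all genes. No region at all was found for 12 genes (27.9%, 15.3 to 43.7), against 18.9%: Sox1, Sox2, Sox3, Sox9, Sox11, Sox14, Sox17, Pax1, Pax4, Pax9, Tbx18 and Tbx22. From these 12 the nearest region called in all libraries was a median of 194662 bp away, up to 845750 bp for Sox11, beside a median of 193593 bp for all genes without a region. The members are shorter than other genes, with a median of 11252 bp against 17146 bp, and had a median of 2 regions against 3.

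Each library was then counted over the 43 genes. An end was open for 15 and 13 genes in WT replicates 1 and 2 and for 12 and 11 in KO replicates 1 and 2 (14 ± 1.41 and 11.5 ± 0.707, mean ± SD, n = 2 each). The groups did not overlap, and the difference of -2.5 genes had a two-sided exact permutation p of 0.333, the smallest that 2 libraries against 2 can give. With the weakest 25% of each list removed the difference was 0, and with a deposited −log10 q of at least 2 it was -0.5. Counted by each library's own peaks within 1 kb, an alternative added after seeing the data, it was -3. Regions called in the windows were 95 and 91 in WT against 82 and 91 in KO (93.0 ± 2.83 and 86.5 ± 6.36; difference -6.5, exact permutation p = 0.667). Peaks covered 31.8 and 31.3 kb in WT against 27.5 and 32.0 kb in KO (31.5 ± 0.388 and 29.8 ± 3.17; difference -1.75 kb, exact permutation p = 1.0). For both the lower value was that of KO replicate 1, the shortest list, and without it the difference in covered length was 0.489 kb. Over all protein-coding genes 12545 and 12719 were open at an end in WT and 12490 and 12667 in KO (difference -53.5, exact permutation p = 0.667).

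**Figure D4:**
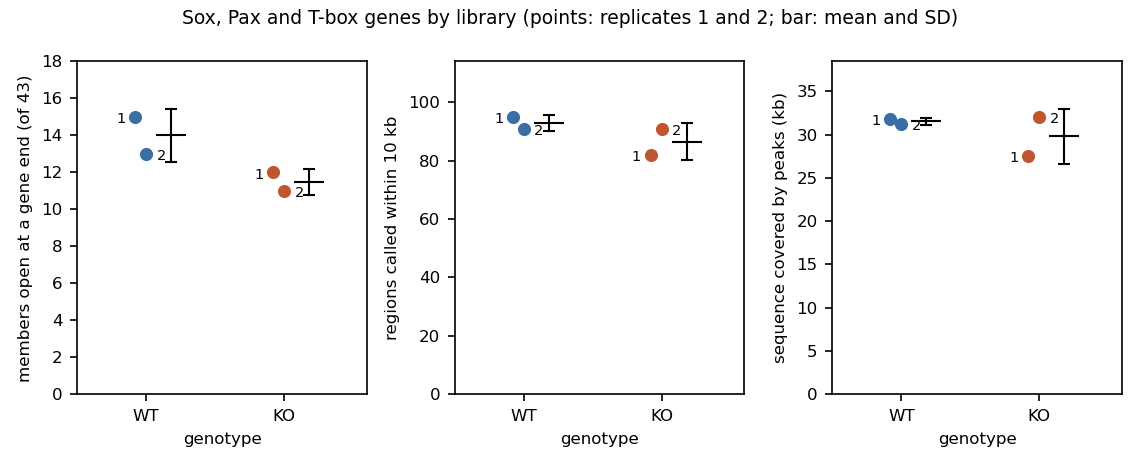
Members open at a gene end (of 43), regions called within 10 kb and sequence covered by peaks (kb) in each library, blue for WT and orange for KO, with the replicate number beside each point and the mean and SD as bars. The WT and KO points are apart in the first panel, 15 and 13 beside 12 and 11, and KO replicate 1 lies lowest in the others, at 82 regions and 27.5 kb.

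Regions called in both libraries of 1 genotype and in neither of the other were few. KO-only regions numbered 2 of 142 (1.41%, interval 0.171 to 5.00), against 1.40% of regions near any gene, and WT-only regions 5 (3.52%, 1.15 to 8.03), against 1.87%. Genes with a KO-only region were 2 of 43 (4.65%, 0.568 to 15.8, against 4.82%), and with a WT-only region 5 (11.6%, 3.89 to 25.1, against 6.28%). No gene end was open in both KO libraries and neither WT library (0 of 43, which allows a share of up to 8.22%, against 0.297% of all genes). Tbx2 alone was open in both WT and neither KO library (1 of 43, 2.33%, against 0.315%). Pairs that cross the genotypes held 3 regions for WT replicate 1 with KO replicate 2 (2.11%, against 1.46% near any gene) and 1 for WT replicate 2 with KO replicate 2 (0.704%, against 2.08%). The pairs of KO replicate 1 with WT replicate 1 and WT replicate 2 held none, against 1.02% and 1.33%. With 1 library left out, and the rule applied to the rest, KO-only regions became 4 when either WT library was dropped. They became 17 when KO replicate 1 was dropped and 15 for KO replicate 2. WT-only regions became 20 on dropping WT replicate 1 and 21 on dropping WT replicate 2. On dropping KO replicate 1 WT-only regions were 8, and for KO replicate 2 they were 11. The rule is looser with fewer libraries, and a genotype left with 1 library needs a call in that library alone. These rises therefore follow from the rule and do not measure how stable the regions are.

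The 2 KO-only regions lay inside Sox5 and Pax5. That of Sox5 (chr6:144667735-144668181, 447 bp) had folds of 2.74 and 2.57 in KO replicates 1 and 2, at percentiles 2.11 and 1.59, near the bottom of both lists. That of Pax5 (chr4:44704385-44704562, 178 bp, 6132 bp inside from the start) had folds of 3.51 and 2.80, at percentiles 21.9 and 4.0. The WT-only region of Tbx2, a factor of the heart's atrioventricular canal, was 161 bp long, 184 bp beyond the gene's higher-coordinate end (chr11:85842132-85842292; 2.56 and 2.94; percentiles 0.977 and 9.70). Inside Tbr1, 4137 bp from the 5′ end, it measured 324 bp (chr2:61807000-61807323; 3.15 and 3.19; percentiles 11.1 and 17.7). At Sox21 it was 221 bp long and 1367 bp from the gene (chr14:118231646-118231866; 3.36 and 3.17; percentiles 17.6 and 17.0). In Sox5 the WT-only region of 455 bp had folds of 3.70 and 3.50 (chr6:144463117-144463571; percentiles 27.6 and 27.0). The strongest was that of Pax8, 226 bp and 5233 bp inside from the 3′ end (chr2:24425784-24426009; 3.83 and 3.75; percentiles 31.2 and 34.2). The highest percentile that any of the 7 regions reached was 34.2.

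**Figure D5:**
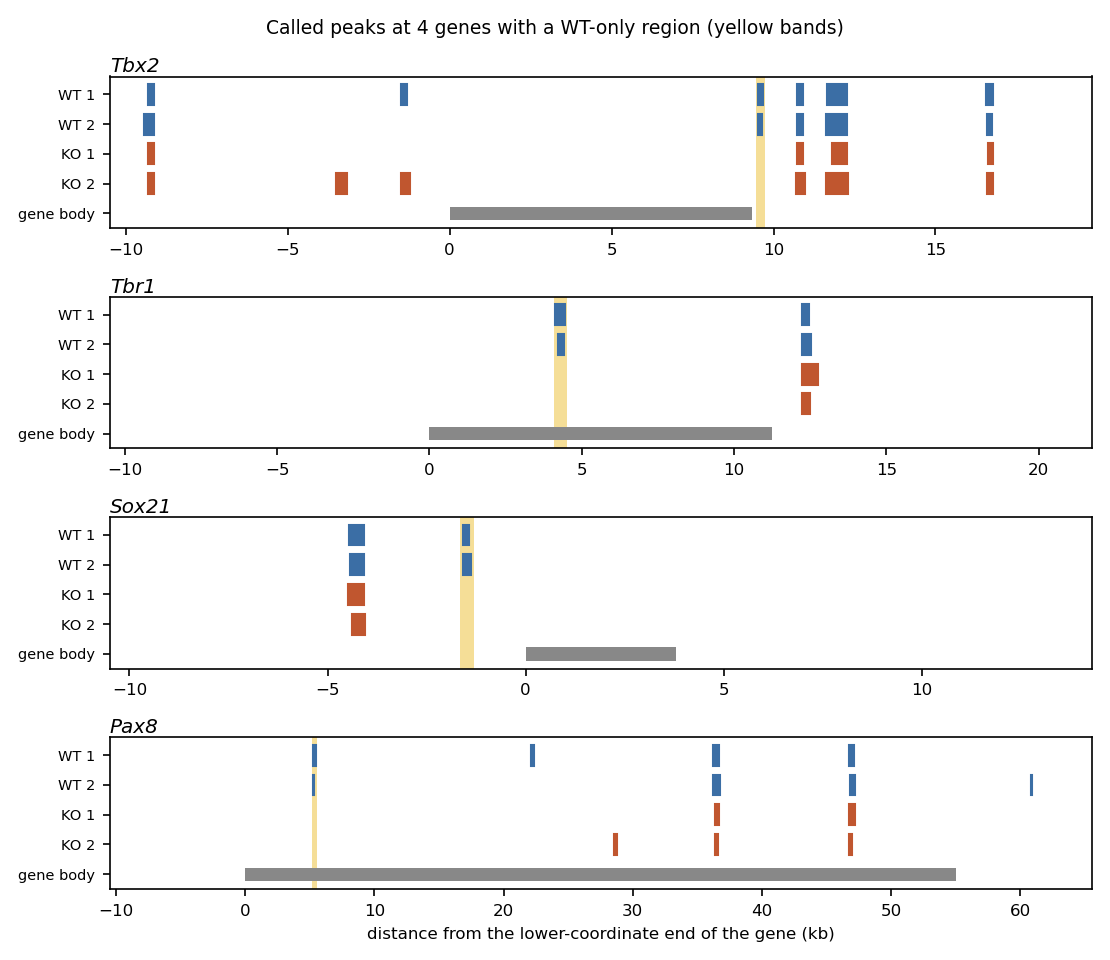
Peaks of each library over the gene body and 10 kb on each side of Tbx2, Tbr1, Sox21 and Pax8, against distance from the gene's lower-coordinate end (kb), with the WT-only regions as yellow bands. Only WT peaks stand in the bands, while neighbouring regions, such as that 970 bp past the 3′ end of Tbr1, have a peak in all 4 rows.

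Among the 60 regions called in all 4 libraries, peak width was compared as a second measure. The median log2 ratio of mean peak width, KO over WT, was 0.02 over the 60 regions and 0.00 over 40298 regions near all genes, with 32 wider in KO and 28 wider in WT. Both KO peaks were wider than both WT peaks in 8 regions (13.3%, interval 5.94 to 24.6, against 16.6%) and both WT peaks wider than both KO peaks in 9 (15.0%, 7.10 to 26.6, against 16.6%). Among regions whose WT and KO widths did not overlap, the widest gaps toward WT were at the Tbx1 end, with 616 and 882 bp in WT replicates 1 and 2 and 122 and 465 bp in KO replicates 1 and 2 (log2 -1.35). In Pax8 it was 445 and 485 bp against 279 and 219 bp (log2 -0.90), and in Sox10 279 and 218 bp against 131 and 150 bp (log2 -0.82). Toward KO they were in Pax6, the eye and brain factor, with 147 and 212 bp in WT against 359 and 492 bp in KO (log2 1.25), and in Sox13, with 120 and 119 bp against 298 and 237 bp (log2 1.16). These 5 were chosen after their widths were seen.

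Genes that work with these factors were described from fixed lists, without a test. Of all protein-coding genes 54.7% were open at an end in all 4 libraries, 6.41% in some and 38.9% in none. A region called in all libraries lay in the window of 74.1% of them. All 10 PRC2 genes listed, Ezh1, Ezh2, Eed and Suz12 among them, were open at an end in all 4 libraries. Of 12 Pax5 target genes 3 were open at an end in all libraries (Cd79a, Blk and Blnk), 2 in some and 7 in none, and all 12 had a region called in all libraries in the window. Of 10 Tbx21 and Eomes targets 3 were open in all libraries, Runx3, Il12rb2 and Cxcr3, and 7 in none, among them Gzma, Gzmb and Klrg1 with no region in the window. Of 8 partners of Sox2 in pluripotency 2 were open in all libraries, Klf4 and Utf1, and 6, Pou5f1 and Nanog among them, in none. Of 8 cartilage targets of Sox9, Sox5 and Sox6, 2 were open in all libraries and 2 in some. Of 7 glial and melanocyte targets of Sox10, 5 were open in all, among them Mitf, a factor that macrophages also use, and 1 in some. Of 8 endothelial targets of SoxF factors 4 were open in all and 2 in some, and of 8 heart targets of T-box factors 1 in all and 1 in some. The 3 paralogs listed beside the members were Mga, open in all libraries, and T and Sry, with no region in their windows.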

How the data were processed

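Reads were trimmed, aligned and called with fastp, Bowtie2 and MACS2 on mm10, per the submitters' processing notes. The sources used here give no versions, read filters or transposase shift. The 4 deposited broad peak lists, 1 per library, hold a score, a fold over local background, and −log10 p and −log10 q, the p-value and q-value of the authors' peak caller. The largest deposited q is 0.0497, and each list skips 261 to 322 of its own peak numbers. No counts or coverage were used, since the lists hold none.

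Peaks were merged (1 bp overlap) and assigned to genes (1 kb of an end, 10 kb window) in Python 3.11.15 with pandas 2.3.3, NumPy 2.4.6 and SciPy 1.17.1. The steps were tested on simulated data. Libraries were grouped by title, and totals were compared by two-sided exact permutation. Every member is accounted for. Those open at an end in all or some libraries and those with a genotype-only region have folds for the libraries that called that region. Of the 5 with the most regions called in all libraries, some, such as Sox18 and Tbx2, have those regions given as counts only. Members and lists were chosen with earlier results of these data known. Strand and start windows came from the RefSeq promoter table, which matched 31 of 43 members. Not matched were Sox3, Sox7, Sox9, Sox10, Sox17, Sox18, Pax3, Pax4, Tbx2, Tbx3, Tbx5 and Tbx15. Alternatives were stricter peaks (−log10 q of at least 2, the weakest 25% or 50% removed), other merging, overlap, end and window rules, each library left out, and the replicate number as a block.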

Additional observations from a re-analysis of the deposited data

How the results depend on the processing

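Of 120 recomputed values under 17 alternative settings, the replicate block not counted, 93 kept their direction or, for counts, stayed within 1.5 times of the count given, and the cause of the other changes was not tested beyond what each setting removes. A difference counted as kept whenever its sign held, and merging peaks within 100 bp changed no value. The tally is therefore not a measure of robustness. Genes open at an end in all 4 libraries were 6 with a −log10 q of at least 2 and 6 when peaks had to cover at least 50% of a region. They were 5 with the weakest 25% of each list removed and 4 with the weakest 50% removed. They were 5 of 31 when only the starts of the promoter table, or only the gene's 5′ end (an alternative added after seeing the data), counted. Genes open in some libraries were 3, 1 and, for both start rules, 4, and 4 with the end within 0.5 kb. Regions called in all libraries were 37, 25 and, in the gene body only, 33. KO-only regions were 0 with either cut on strength and 5 when peaks had to cover at least 50% of a region. WT-only regions were 1 with the weakest 50% removed and 3 in the gene body only. The KO minus WT difference in open ends was 0 with the weakest 25% removed.

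Leaving out 1 library gave 9 to 10 genes open in all libraries, 6 to 7 in some and 26 to 27 in none, 62 to 66 regions in all, 4 to 17 KO-only and 8 to 21 WT-only regions, and differences of -3.5 to -2 open ends, -11 to -2 regions and -4.0 to 0.489 kb. With a library dropped the rules are looser, so the counts called in all libraries and the genotype-only counts could hardly fall. The covered length reversed to 0.489 kb without KO replicate 1. A call by each library's own peaks, also chosen after seeing the data, gave 9, 8 and 26 genes and a difference of -3 open ends.

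Whether the replicate numbers pair the libraries is not in the labels. Same-numbered deviations of the calls correlated at 0.0066 over 91858 regions, a value per region that cannot decide it. Protein-coding genes open at an end numbered 12545 and 12719 in WT replicates 1 and 2 and 12490 and 12667 in KO. They were thus more in replicate 2 of both genotypes, and a shared batch was not tested. With the replicate number as a block the differences are the same by construction in this balanced design (-2.5 ends, -6.5 regions and -1.75 kb), with exact sign-flip p of 0.5, 1.0 and 1.0, where 0.5 is the smallest that 2 pairs allow. Depth is unknown, so a region missing from a list is a missing call, and whether the chromatin was closed there was not measured.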
